A study of Mus musculus with 8 samples.

Results

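The chemokine and chemokine receptor genes of mouse skin were taken from RNA-seq profiles as every gene whose symbol in the deposited files is Ccl, Cxcl, Cx3cl, Ccr, Cxcr or Cx3cr followed by a number, which left out the Ccrl and Xcl genes. The rule found 52 of the 55418 genes listed, 34 ligands and 18 receptors. Of these, 40 genes (26 ligands and 14 receptors) had a value of at least 1 FPKM in at least 1 library and are described below. FPKM, the unit of all levels here, is a fragment count divided by transcript length and library depth, so levels can be set beside each other between genes. The other 12 (Ccl19, Ccl26, Ccl28, Ccr1l1, Ccr7, Cxcl2, Cxcl3, Cxcl11, Cxcl15, Cxcl17, Cxcr1 and Cxcr5) stayed under 1 FPKM in every library, with the highest value in Ccr7 at 0.842 FPKM, and Ccl26 was listed at 0 in all 8 libraries. Just inside the limit were Ccr9, which reached 1.04 FPKM, and Ccr10, which reached 1.05 FPKM.

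The study sequenced total RNA from the skin of wildtype mice and of mice labelled hairloss, described by the submitters as carrying a spontaneous mutation, at postnatal days 0, 16, 19 and 28. There was 1 library for each genotype and age, 8 in all, and the mutated gene, the strain and the number of animals behind a library are not given in the labels. Each difference at a single age therefore compares 2 libraries and has no replicate check. The skin label held: the epidermal keratins Krt14 and Krt10 stood between 399 and 4829 FPKM and between 406 and 3507 FPKM over the 8 libraries.

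The libraries differed in their share of male and female RNA. Xist, the RNA of the inactive X chromosome in females, stood at 51.3, 0.0158, 12.4 and 0.166 FPKM in wildtype skin at days 0, 16, 19 and 28 and at 76.1, 0.00961, 0.115 and 50.2 FPKM in hairloss skin, while the sum of 4 Y-linked genes stood at 58.7, 97.7, 62.2 and 78.3 FPKM in wildtype skin and at 0.109, 66.2, 78.2 and 0.00545 FPKM in hairloss skin. Both day 16 libraries carried Y-linked RNA with Xist near 0. At day 28 the wildtype library carried Y-linked RNA and the hairloss library carried Xist, so genotype and sex cannot be told apart at that age, and the wildtype libraries of days 0 and 19 carried both. The hairloss library carried Xist with Y-linked RNA near 0 at day 0, and Y-linked RNA with Xist near 0 at day 19. The genotypes were thus alike in this respect only at day 16. Estimated depth ran from 30900000 to 44700000 fragments per library, at which 3 fragments on a transcript of 1 kilobase give 0.0672 to 0.0971 FPKM.

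Chemokines are small secreted proteins that bind heptahelical receptors on leukocytes and direct their movement along a gradient. Families are named after the spacing of the first cysteines of the ligand (CC, CXC and CX3C), and most inflammatory chemokines bind several receptors while several homeostatic ones bind a single one. In skin, keratinocytes, fibroblasts, endothelial cells and resident macrophages make chemokines, and receptors are carried mostly by leukocytes, so that receptor RNA in whole skin is read largely from immune cells. In bulk RNA of this kind, more or fewer cells of a type and more or less RNA per cell cannot be told apart, and this holds for every level below. Many inflammatory chemokine genes are textbook targets of the transcription factor NF-kappa-B.

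The bases upstream of 4 ligand genes are shown because these genes had some of the largest differences or highest levels at day 16 (Cxcl1, Ccl20 and Ccl8), or hold more than 1 match to the NF-kappa-B consensus (Cxcl10). Each sequence is the 250 bases before the RefSeq start site on the gene's strand, build GRCm38.p6 (mm10), and capitals mark a match to the 10-base NF-kappa-B consensus on either strand. Runs of 11 capitals are 2 matches that overlap on opposite strands.
Cxcl1, chr5:90890995-90891244, plus strand: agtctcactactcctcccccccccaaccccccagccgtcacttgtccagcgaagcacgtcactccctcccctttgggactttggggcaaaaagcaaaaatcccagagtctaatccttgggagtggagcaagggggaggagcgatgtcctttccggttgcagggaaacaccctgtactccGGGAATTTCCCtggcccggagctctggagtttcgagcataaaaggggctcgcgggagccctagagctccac
Ccl20, chr1:83116516-83116765, plus strand: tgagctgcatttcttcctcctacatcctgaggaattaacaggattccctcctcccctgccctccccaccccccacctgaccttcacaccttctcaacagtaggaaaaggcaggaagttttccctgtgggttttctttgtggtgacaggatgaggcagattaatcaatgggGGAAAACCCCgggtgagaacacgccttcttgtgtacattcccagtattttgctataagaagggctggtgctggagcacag
Cxcl10, chr5:92348890-92349139, minus strand: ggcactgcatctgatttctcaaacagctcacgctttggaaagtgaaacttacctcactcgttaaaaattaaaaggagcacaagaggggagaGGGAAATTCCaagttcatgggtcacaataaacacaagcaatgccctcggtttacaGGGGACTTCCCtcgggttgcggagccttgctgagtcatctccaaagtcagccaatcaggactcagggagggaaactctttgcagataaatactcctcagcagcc
Ccl8, chr11:82114935-82115184, plus strand: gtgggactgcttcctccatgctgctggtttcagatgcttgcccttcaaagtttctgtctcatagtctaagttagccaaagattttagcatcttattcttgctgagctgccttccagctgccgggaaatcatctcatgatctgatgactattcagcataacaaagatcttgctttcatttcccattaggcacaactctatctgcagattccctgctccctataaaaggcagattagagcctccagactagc
The first match begins 71 bases before the start site in Cxcl1, 80 in Ccl20 and 159 in Cxcl10, and these letters are not in the Ccl8 window. Over windows from 250 bases before to 50 bases after the start, 9 of the 30 detected members with a RefSeq window held a match (Ccl1, Ccl9, Ccl20, Ccl27a, Ccr1, Ccr3, Ccr6, Cxcl1 and Cxcl10), or 30.0%, against 9.55% of the 27025 genes with a window. Ccl11, Ccl2, Ccl24, Ccl4, Ccl5, Ccl7, Ccr10, Cxcl16 and Cxcl5 have no entry. A match is a description of the letters only.

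In these libraries most chemokine and receptor genes, as most genes of any kind, differed by less than 2-fold between the 2 genotypes at birth. Many chemokine and receptor genes were higher in hairloss skin at day 16. Differences are given as hairloss minus wildtype on the log2(FPKM + 1) scale, which understates the change of low genes, and a gene was counted as higher or lower when the difference was at least 1 (2-fold) with at least 1 FPKM in either library. Below, higher or lower by 2-fold and within 2-fold refer to this scale, on which a low gene can stay within 2-fold while its FPKM values differ by more, and a fold given with a number of its own is a ratio of FPKM values. At day 0, 0 of the 22 members compared were higher (1.49% of all genes compared) and 0 were lower (1.58%). At day 16, 19 of 36 were higher (5.34% of all genes compared) and 2 were lower (7.39%). At day 19, 10 of 38 were higher (6.53%) and 4 lower (5.76%), and at day 28, 6 of 28 were higher (5.6%) and 2 lower (6.42%), between libraries that also differed in sex. The libraries of days 0 and 19 also differed in their share of male and female RNA. The median difference over the 40 detected members was -0.14, 0.94, 0.21 and 0.34 at days 0, 16, 19 and 28, beside medians over all genes compared of -0.01, -0.08, -0.00 and 0.00.

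The level at which a gene counts as detected bears on the day 16 count, because 11 of the 19 members that were higher reached 1 FPKM only in the hairloss library. Among the 20 members with at least 1 FPKM in the day 16 wildtype library, 8 were higher (3.47% of all genes with at least 1 FPKM there) and 2 lower (7.74%). The same restriction left 4 of 28 higher (4.16%) and 4 lower (6.15%) at day 19, and 4 of 20 higher (4.04%) and 2 lower (6.83%) at day 28. Over all 52 members, detected or not and whatever the size of the difference, 40 were above wildtype and 10 below at day 16, so that 80% of those that differed were above, against 39.4% of all genes listed. The counts were 16 above and 32 below at day 0 (33.3% against 46.2%), 34 above and 17 below at day 19 (66.7% against 49.2%) and 42 above and 6 below at day 28 (87.5% against 49.7%), so by direction alone the share was highest at day 28, the age at which genotype and sex cannot be told apart. Both kinds of member took part at day 16: 14 of 25 ligands and 5 of 11 receptors compared were higher, with 1 of each lower (Ccl25 and Ccr4). In the marker and pathway lists below too, a gene that reaches 1 FPKM in only 1 of the 2 libraries of an age can count in 1 direction only. The shares of all genes compared at each age, given above, stand beside those counts as well.

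**Figure D1:**
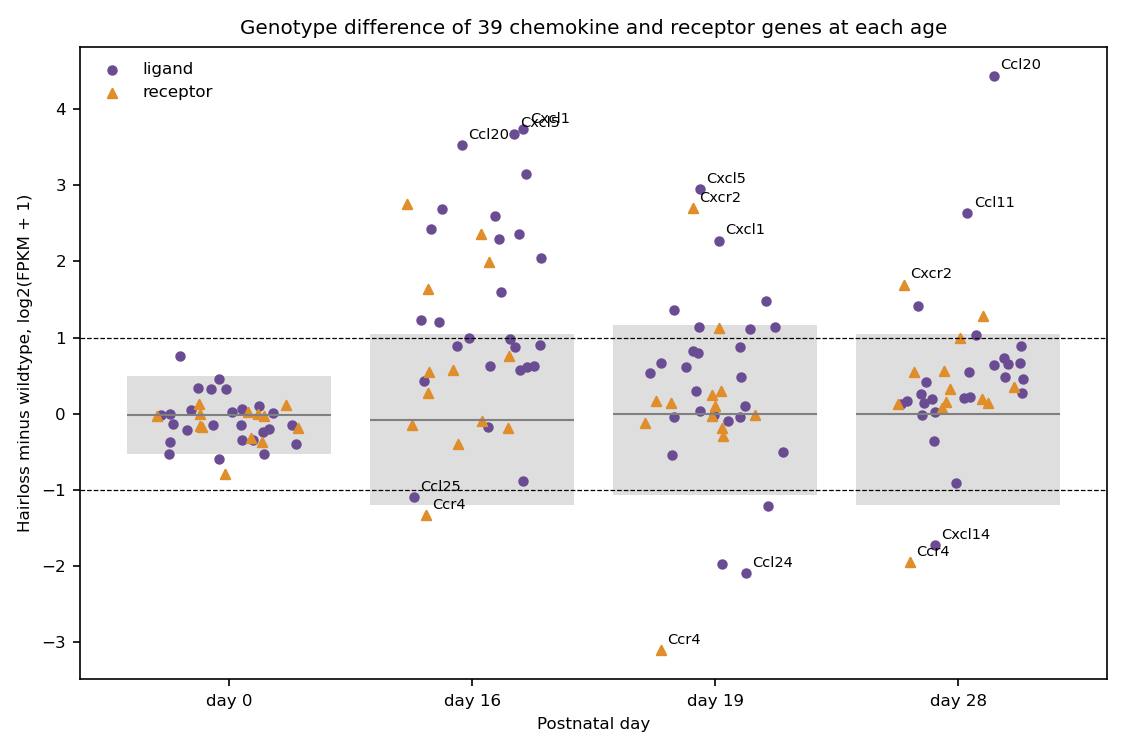
Hairloss minus wildtype on the log2(FPKM + 1) scale (vertical axis) for 39 of the detected members at each postnatal day (horizontal axis), ligands as circles and receptors as triangles, 1 library per genotype and age. The grey band spans the 5th to 95th percentile of all genes compared and the grey line is their median; dashed lines mark 2-fold. At day 0 every member drawn lies within 2-fold, and at day 16, 18 of those drawn lie at or above it.

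The highest of the 8 values fell in the day 16 hairloss library for 22 of the 40 detected members, or 55%, against 9.87% of all genes tested. Among the 22, Ccl4, Ccl5, Ccr8, Cxcl5, Cxcr2 and Cxcr3 count as detected through hairloss libraries only, which raises this count. The wildtype day 19 library held the highest value of 7 members (Ccl11, Ccl24, Ccl27a, Ccr4, Ccr9, Ccr10 and Cxcl10), or 17.5%, near the 15.1% of all genes tested. Over days 16, 19 and 28, all 3 hairloss libraries lay above all 3 wildtype libraries for 15 members (8.21% of all genes do so), and all 3 lay below for 1, Ccr4 (10.5% of all genes). Among the 15 were Ccl1, Ccl3, Ccl4, Ccl5, Ccl8, Ccl12, Ccl20, Ccr8, Cxcl1, Cxcl5, Cxcl9, Cxcl13, Cxcl16 and Cxcr2. Of these, Ccl4, Ccl5, Ccr8, Cxcl5, Cxcl9 and Cxcr2 reached 1 FPKM in hairloss libraries only. They therefore count as detected only through the genotype in which they are high, which raises the count. Ccl3 was at most 0.942 FPKM in the later libraries.

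**Figure D2:**
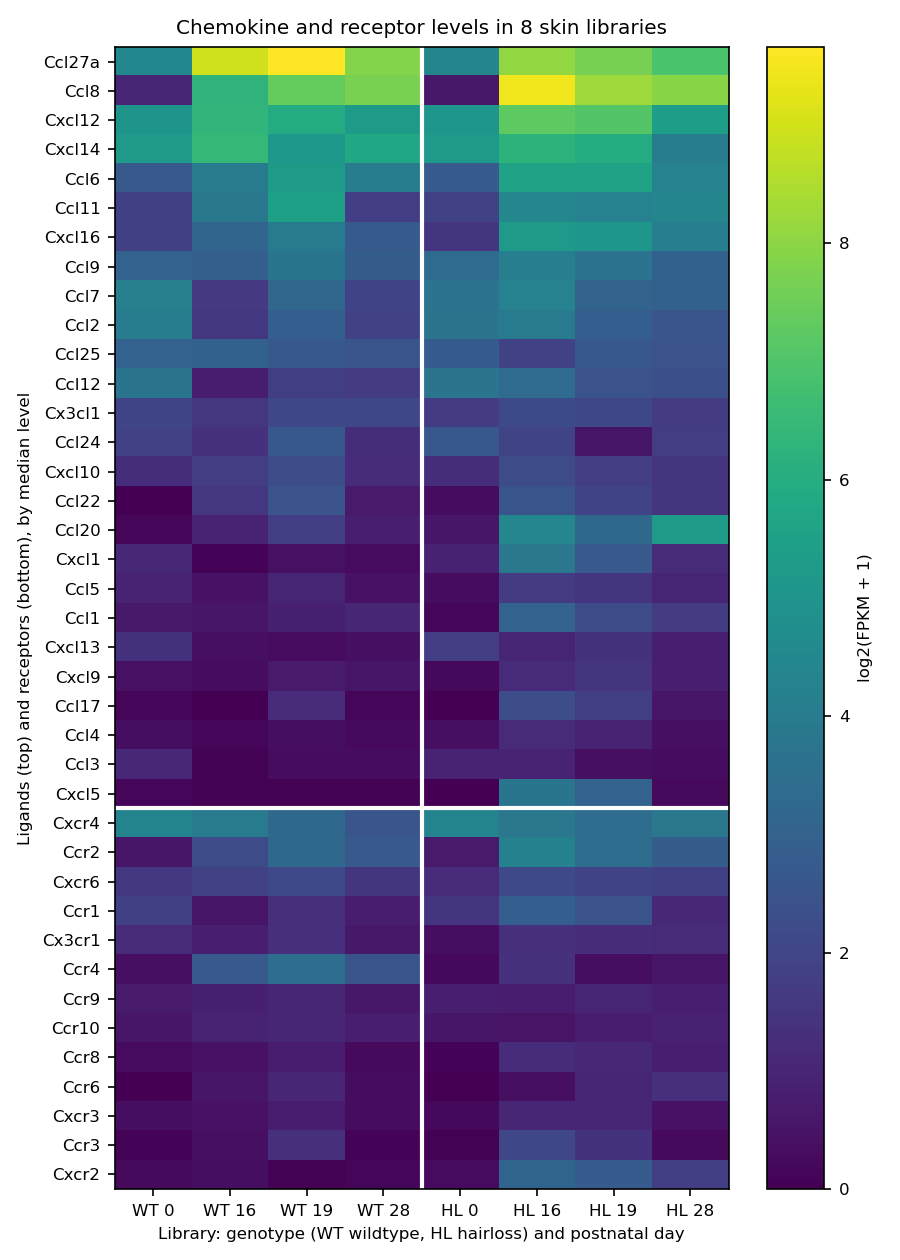
Heat map of log2(FPKM + 1) for 39 of the detected members (rows, ligands above the white line and receptors below, ordered by median level) in the 8 libraries (columns, wildtype left and hairloss right of the white line, by postnatal day). Ccl27a and Ccl8 hold the highest levels, at 806 FPKM in wildtype skin at day 19 and 697 FPKM in hairloss skin at day 16.

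The neutrophil-attracting CXC ligands and their receptor had some of the largest differences. Cxcl1 and Cxcl5 bind Cxcr2, the receptor through which neutrophils are drawn into tissue. Cxcl1 stood at 1.14, 0.0545, 0.356 and 0.21 FPKM in wildtype skin and at 0.866, 13, 5.55 and 1.23 FPKM in hairloss skin, in each case at days 0, 16, 19 and 28, the order used for all values below. Cxcl5 stood at 0.125, 0.0432, 0.0518 and 0.036 FPKM in wildtype skin and at 0.0189, 12.4, 7.1 and 0.194 FPKM in hairloss skin. Both ligands were near 0 in the 3 later wildtype libraries, stood highest in hairloss skin at day 16, lower at day 19 and lower again at day 28, where Cxcl5 was back near the wildtype level. The differences of Cxcl1 were -0.20, 3.74, 2.27 and 0.88, and those of Cxcl5 were -0.14, 3.68, 2.95 and 0.20. The other ligands of the group (Cxcl2, Cxcl3 and Cxcl15) and the receptor Cxcr1 were among the undetected members.

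Cxcr2 stood at 0.193, 0.269, 0.0509 and 0.0822 FPKM in wildtype skin and at 0.208, 7.59, 5.81 and 2.5 FPKM in hairloss skin. The receptor stood under 0.3 FPKM in all 4 wildtype libraries and in newborn hairloss skin, and above 2 FPKM in all 3 later hairloss libraries. Unlike Cxcl5, Cxcr2 was still 2-fold higher at day 28, with differences of 2.76, 2.70 and 1.69 at days 16, 19 and 28. Cxcr2 lies on chromosome 1, 74153989 to 74161246 (mm10), Cxcl1 on chromosome 5, 90891241 to 90893115 and Cxcl5 on chromosome 5, 90759360 to 90761624.

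Most markers of neutrophils were, like these genes, higher in hairloss skin at days 16 and 19. Of the 10 listed, 8 of 8 compared were higher at day 16, 6 of 7 at day 19 and 2 of 2 at day 28. Over all genes compared the shares were 5.34%, 6.53% and 5.6%. At day 16 all markers compared but S100a8 and S100a9 reached 1 FPKM in the hairloss library only. At day 19 all but S100a8, S100a9 and Retnlg did so. Such markers are compared through the genotype in which they are high and could not have counted as lower. The summed level ran over 14.6 to 152 FPKM in wildtype skin and 69.8 to 6519 FPKM in hairloss skin. That sum was mostly S100a8 and S100a9, which activated keratinocytes also make, and these were the 2 compared at day 28. The other markers were under 1 FPKM in both libraries of day 28. Their differences there lay between -0.19 (Camp) and 0.46 (Retnlg), beside 1.69 for Cxcr2. The surface receptor Csf3r stood at 0.372, 0.158, 0.491 and 0.369 FPKM in wildtype skin and at 0.496, 7.38, 5.59 and 0.682 FPKM in hairloss skin, with a day 16 level near that of Cxcr2. Others of the list, named here after their values were seen, ranged widely. At day 16 the granule genes Ngp (0 and 2.17 FPKM), Camp (0.11 and 2.54 FPKM) and Ltf (0.198 and 1.89 FPKM) and the secreted Retnlg (0.665 and 7.85 FPKM) were higher in hairloss than in wildtype skin, and Camp was highest in newborn wildtype skin (7.53 FPKM). Ly6g was at most 0.302 FPKM and at 0 in 4 libraries, and Mpo was at most 0.239 FPKM. What part these markers have in the Cxcr2 result was not tested.

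Among the monocyte-attracting CC ligands, Ccl8 was high in the later libraries of both genotypes, while Ccl2, Ccl7 and Ccl12 were at most 18.5 FPKM. Ccl2, Ccl7, Ccl8 and Ccl12 bind Ccr2, the receptor of inflammatory monocytes (Ccl8 of the mouse is also a ligand of Ccr8). Ccl8 stood at 1.02, 77.7, 165 and 212 FPKM in wildtype skin and at 0.527, 697, 302 and 247 FPKM in hairloss skin. Ccl8 was near or under 1 FPKM in newborn skin of both genotypes and high in every later library, and hairloss skin stood above wildtype at each later age, by 8.97-fold at day 16, 1.84-fold at day 19 and 1.17-fold at day 28. At day 16 Ccl8 was the most abundant of the 26 detected ligands in hairloss skin and Ccl27a in wildtype skin. The summed level of the 26 was 173, 807, 1221 and 585 FPKM in wildtype skin and 165, 1439, 877 and 561 FPKM in hairloss skin, higher in hairloss skin at day 16, lower at day 19 and close to wildtype at days 0 and 28.

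Ccl2, Ccl7 and Ccl12 had another course. Ccl2 stood at 15.9, 1.97, 6.43 and 2.73 FPKM in wildtype skin and at 12, 14.2, 6.34 and 4.83 FPKM in hairloss skin. Ccl7 stood at 17.4, 2.01, 8.11 and 2.88 FPKM in wildtype skin and at 11.8, 18.5, 7.51 and 6.94 FPKM in hairloss skin. Ccl12 stood at 12.1, 0.711, 2.49 and 2.31 FPKM in wildtype skin and at 12.2, 9.31, 4.53 and 4.17 FPKM in hairloss skin. In wildtype skin these 3 ligands were highest at birth and lowest at day 16, whereas in hairloss skin the day 16 level was near or above the newborn one. The day 16 difference was 2.36 for Ccl2, 2.69 for Ccl7 and 2.59 for Ccl12. At day 19 the genotypes differed by no more than 0.1 on the log2 scale for Ccl2 and Ccl7, and at day 28 Ccl7 was 2.41-fold higher in hairloss skin.

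Ccr2 stood at 0.496, 3.77, 8.64 and 5.48 FPKM in wildtype skin and at 0.637, 18, 9.61 and 6.12 FPKM in hairloss skin. The receptor was under 1 FPKM at birth and above 3 FPKM in all later libraries, and the genotypes differed mainly at day 16, by 4.77-fold. At days 19 and 28 the ratio was 1.11 and 1.12. Macrophage markers moved the same way at day 16 and not later: 9 of 10 were higher at day 16 and 0 of 10 at days 0, 19 and 28, with a summed level of 195 to 428 FPKM in wildtype skin and 227 to 581 FPKM in hairloss skin. Their part in the Ccr2 and Ccl8 differences was not tested.

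The inflammatory CC ligands Ccl3, Ccl4, Ccl5, Ccl6 and Ccl9 draw monocytes, macrophages and T cells, several of them through Ccr1. Ccl6 stood at 5.53, 14.5, 37.8 and 16.1 FPKM in wildtype skin and at 5.84, 45.8, 46.6 and 18.6 FPKM in hairloss skin. Ccl9 stood at 7.15, 6.57, 12.4 and 6.23 FPKM in wildtype skin and at 9.34, 16.5, 11.9 and 6.9 FPKM in hairloss skin. Ccl6 and Ccl9 were the abundant ligands of the group, and both were higher in hairloss skin at day 16, by 3.17-fold and 2.51-fold, and within 2-fold at the other ages. Ccl5 (2.23 against 0.372 FPKM) and Ccl4 (1.26 against 0.128 FPKM) also passed 2-fold at day 16, while Ccl3 (0.942 against 0.0507 FPKM) stayed under 1 FPKM there and reached 1 FPKM only in newborn wildtype skin.

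Ccr1 stood at 2.52, 0.455, 1.54 and 0.696 FPKM in wildtype skin and at 1.81, 6.47, 4.53 and 1.13 FPKM in hairloss skin. In wildtype skin the receptor was highest at birth, and in hairloss skin it was highest at day 16. Ccr1 was higher in hairloss skin at days 16 and 19, with differences of 2.36 and 1.12, and the later libraries of the 2 genotypes overlapped, since the day 28 hairloss value lay under the day 19 wildtype value.

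The eotaxins attract eosinophils through Ccr3, and their pattern was not the same from age to age. Ccl11 stood at 2.53, 13.7, 43.8 and 2.41 FPKM in wildtype skin and at 2.66, 20.9, 18.4 and 20.2 FPKM in hairloss skin. The highest value was in wildtype skin at day 19, and in hairloss skin the 3 later libraries lay close together. Ccl11 was 2.38-fold higher in wildtype skin at day 19 and 8.39-fold higher in hairloss skin at day 28. Ccl24 stood at 2.61, 1.61, 5.2 and 1.43 FPKM in wildtype skin and at 5.09, 2.98, 0.452 and 2.39 FPKM in hairloss skin. Ccl24 was likewise lower in hairloss skin at day 19, by a difference of -2.09, and at days 0, 16 and 28 it was within 2-fold. Hair shaft keratins, which mark growing follicles, moved in the opposite direction at these ages: of the 4 detected, 4 were lower in hairloss skin at day 16, 4 higher at day 19 and 4 lower at day 28, with a summed level of 6.96 to 1919.6 FPKM in wildtype skin and 12.8 to 381 FPKM in hairloss skin. Their part in the Ccl11 pattern was not tested.

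Ccr3 stood at 0.0675, 0.331, 1.46 and 0.0798 FPKM in wildtype skin and at 0.047, 3.14, 1.65 and 0.179 FPKM in hairloss skin. The receptor was higher in hairloss skin at day 16, by 1.64 on the log2(FPKM + 1) scale, and the differences at days 0, 19 and 28 were -0.03, 0.11 and 0.13. The other eosinophil markers were low, with Prg2 at most 2.64 FPKM, Siglecf at most 2.6 FPKM and Epx at most 0.818 FPKM. Of the 4 listed, Ccr3 included, 3 of 3 compared were higher at day 16 (5.34% of all genes compared) and 0 of 1 at day 19. The 3 were Prg2, Siglecf and Ccr3 itself. They reached 1 FPKM at day 16 in the hairloss library only, so none could have counted as lower. The 1 compared at day 19 was Ccr3. The summed level, Ccr3 included, was 0.279 to 2.81 FPKM in wildtype skin and 0.492 to 8.43 FPKM in hairloss skin. The part of the other markers in the Ccr3 difference was not tested.

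The ligands that draw T cells and Langerhans cells to skin went in both directions. Ccl20, the ligand of Ccr6, is made by keratinocytes and attracts Langerhans cell precursors and interleukin-17 producing T cells. Ccl20 stood at 0.109, 0.909, 2.42 and 0.774 FPKM in wildtype skin and at 0.515, 21.1, 8.57 and 37.5 FPKM in hairloss skin. Every wildtype library was under 3 FPKM, and the 3 later hairloss libraries were all above 8 FPKM with the highest at day 28, so that Ccl20 was the detected member with the largest difference at that age (4.44). Ccr6 stood at 0, 0.504, 1.05 and 0.237 FPKM in wildtype skin and at 0, 0.316, 1.01 and 1.46 FPKM in hairloss skin. Its receptor was listed at 0 in newborn skin of both genotypes and had no 2-fold difference at any age on the log2(FPKM + 1) scale, although at day 28 it was close to it (0.99).

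Ccl27a is made by epidermal keratinocytes and binds Ccr10 on skin-homing T cells. Ccl27a stood at 22, 498, 806 and 229.8 FPKM in wildtype skin and at 19.9, 270.2, 205 and 121 FPKM in hairloss skin. It was about equal in the 2 genotypes at birth, and at each later age the wildtype level was the higher one, by 1.84-fold at day 16, 3.94-fold at day 19 and 1.89-fold at day 28. The 3 later wildtype and hairloss libraries overlapped, since the day 16 hairloss value lay above the day 28 wildtype value. Exons of Ccl27a (chromosome 4, 41769467 to 41774247) overlap those of Il11ra1 on the other strand, and the near copy Ccl27b, which has no symbol in the files and lies outside the rule, stood at 0, 9.53, 12.3 and 2.51 FPKM in wildtype skin and at 0, 3.53, 3.24 and 8.51 FPKM in hairloss skin, so how reads were shared out between these genes is uncertain. Ccr10 stood at 0.496, 0.902, 1.05 and 0.751 FPKM in wildtype skin and at 0.492, 0.44, 0.664 and 0.835 FPKM in hairloss skin. Ccr10 was within 2-fold on the log2(FPKM + 1) scale at every age, with its largest difference at day 16 (-0.40).

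Ccr4 was the one member lower in hairloss skin by 2-fold at all 3 later ages. It is the receptor of Ccl17 and Ccl22 and is carried by skin-homing T cells. Ccr4 stood at 0.318, 5.46, 10.2 and 4.73 FPKM in wildtype skin and at 0.155, 1.57, 0.298 and 0.478 FPKM in hairloss skin. The 3 later wildtype libraries lay above 4 FPKM and the hairloss ones below 2 FPKM, and the differences were -1.33, -3.11 and -1.96. Its ligands did not follow it. Ccl17 stood at 0.11, 0, 1.24 and 0.101 FPKM in wildtype skin and at 0, 3.92, 2.44 and 0.511 FPKM in hairloss skin. Ccl22 stood at 0.013, 1.88, 4.49 and 0.639 FPKM in wildtype skin and at 0.263, 4.69, 2.86 and 1.71 FPKM in hairloss skin. Ccl17 was 2.30 higher in hairloss skin at day 16, and Ccl22 was within 2-fold on the log2(FPKM + 1) scale at every age, though at day 16 (0.98) it was just short of it.

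T cell markers were mixed at these ages. At day 16, 3 of 9 compared were higher and 0 lower, at day 19, 2 of 8 were higher and 2 lower, and at days 0 and 28 none of 2 and none of 6 passed 2-fold in either direction, with a summed level of 7.83 to 46.7 FPKM in wildtype skin and 7.87 to 63 FPKM in hairloss skin. At day 19 the markers with the largest differences were Cd3g, of the T cell receptor complex (15 FPKM in wildtype against 4.22 in hairloss skin), Trdc, the delta constant region (2.24 and 0.201 FPKM), and Trbc2, a beta constant region (13 and 35.2 FPKM). The first 2 were lower and the third was higher in hairloss skin. Directions were the same at days 16 and 28, with differences of -0.82 and -0.34 for Cd3g, -0.87 and -0.37 for Trdc, and 1.21 and 0.53 for Trbc2. Whether T cell markers have a part in the Ccr4 difference was not tested.

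Ccl1 and its receptor Ccr8, another pair of skin T cells, were both higher in the later hairloss libraries. Ccl1 stood at 0.586, 0.519, 0.779 and 1.06 FPKM in wildtype skin and at 0.101, 7.15, 3.56 and 2.28 FPKM in hairloss skin. Ccr8 stood at 0.217, 0.386, 0.714 and 0.183 FPKM in wildtype skin and at 0.0761, 1.35, 1.1 and 0.746 FPKM in hairloss skin. For both genes all 3 later hairloss values lay above all 3 later wildtype values, with the highest at day 16, but only Ccl1 passed 2-fold on the log2(FPKM + 1) scale, by 2.42 at day 16 and 1.36 at day 19. Ccl25, known for drawing lymphocytes to gut and thymus through Ccr9, went the other way. Ccl25 stood at 7.27, 6.93, 5.35 and 4.66 FPKM in wildtype skin and at 6.02, 2.71, 5.17 and 4.57 FPKM in hairloss skin. It was 2.56-fold lower in hairloss skin at day 16 and within 2-fold at the other ages. Exons of Ccl25 overlap those of Elavl1 on the other strand, so its level is uncertain. Ccr9 stayed between 0.545 and 1.04 FPKM. Its exons also overlap those of Slc6a20a on the other strand and of the non-coding gene Gm17200 on the same strand, so its level is uncertain too.

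Markers of dendritic and Langerhans cells, which carry Ccr6 and make Ccl17 and Ccl22, had 1 of 8 compared higher at day 16, 3 of 10 lower at day 19 and 1 of 8 higher at day 28, with a summed level of 31.4 to 1048 FPKM in wildtype skin and 33.7 to 728 FPKM in hairloss skin. Cd207, the marker of Langerhans cells, stood at 12.8 FPKM in wildtype against 5.02 FPKM in hairloss skin at day 19, and its day 28 levels were 2.34 and 6.89 FPKM. Their part in the levels of these members was not tested.

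**Figure D3:**
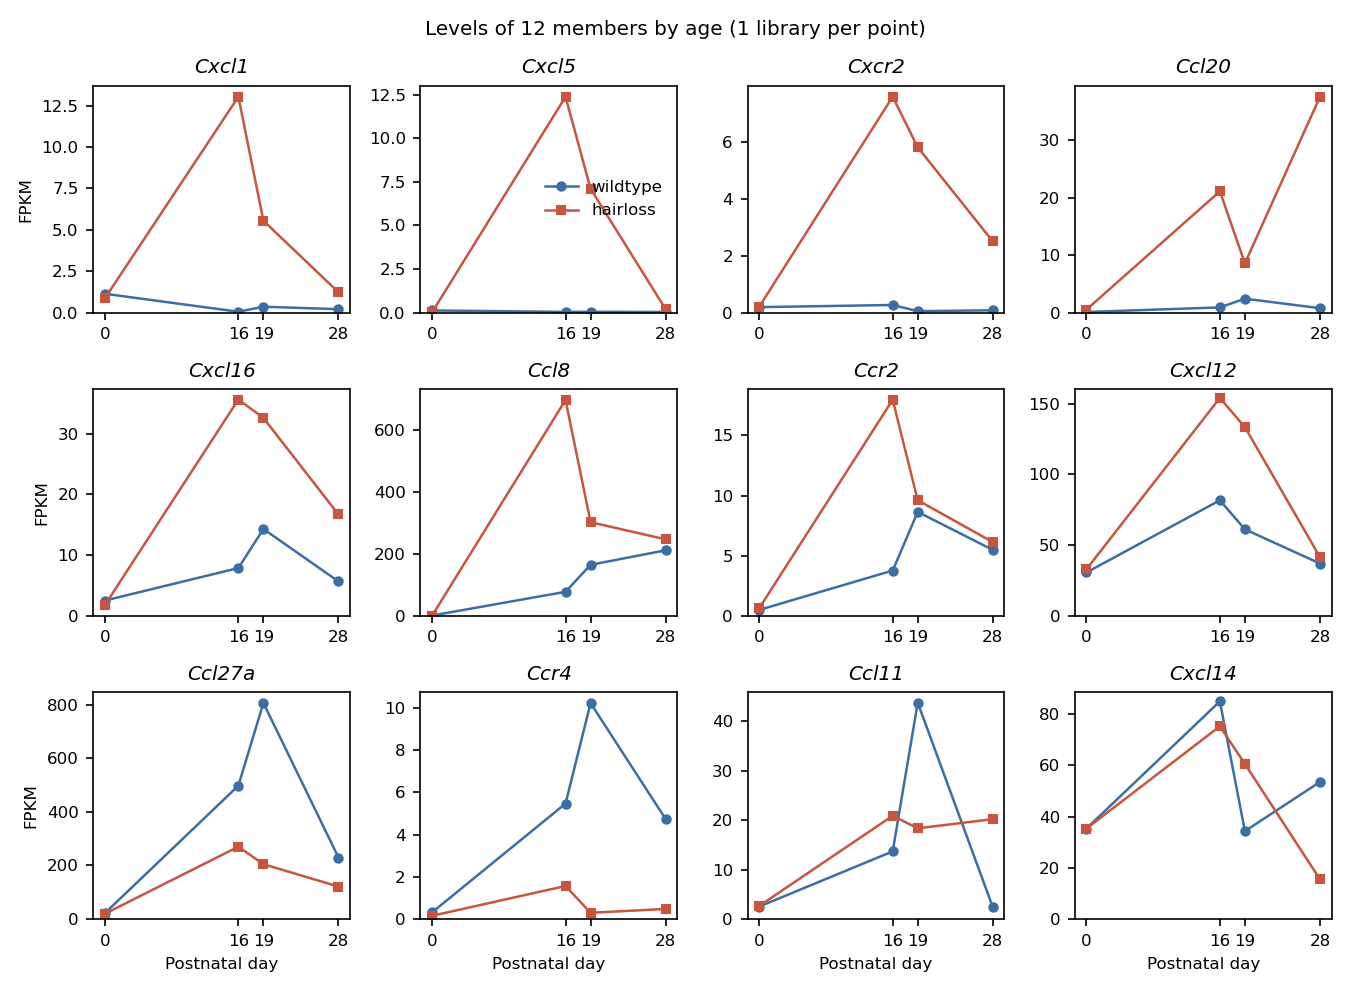
Level in FPKM (vertical axis, linear, a scale for each panel) by postnatal day (horizontal axis) for 12 members, wildtype as blue circles and hairloss as red squares, with 1 library per point and lines only joining the points of a genotype. Cxcl1, Cxcl5 and Cxcr2 stay near 0 in later wildtype skin and peak at day 16 in hairloss skin, while Ccl27a and Ccr4 peak at day 19 in wildtype skin.

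Homeostatic CXC ligands were among the most abundant members. Cxcl12, which binds Cxcr4 and holds leukocytes and progenitors in tissue, was above 30 FPKM in every library. Cxcl12 stood at 30.7, 81.8, 61.2 and 37 FPKM in wildtype skin and at 33, 154, 133 and 41.5 FPKM in hairloss skin. Hairloss skin was 1.89-fold and 2.18-fold higher at days 16 and 19 and close to wildtype at days 0 and 28. Cxcr4 stood at 19.6, 14.9, 8.69 and 4.8 FPKM in wildtype skin and at 19.3, 13.4, 9.87 and 13.2 FPKM in hairloss skin. Its receptor was highest at birth in both genotypes, and the genotypes differed at day 28, where hairloss skin was 2.74-fold higher.

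Cxcl16, a membrane-bound ligand of Cxcr6, was higher in hairloss skin at all 3 later ages. Cxcl16 stood at 2.52, 7.87, 14.3 and 5.67 FPKM in wildtype skin and at 1.77, 35.6, 32.6 and 16.7 FPKM in hairloss skin. The 3 later hairloss libraries lay above all wildtype libraries, by 4.53-fold, 2.28-fold and 2.95-fold at days 16, 19 and 28. Exons of Cxcl16 (chromosome 11, 70453983 to 70459984) overlap those of Zmynd15 on the other strand. Cxcr6, its receptor on T cells, stayed between 1.27 and 3.42 FPKM with no 2-fold difference.

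Cxcl14 stood at 35.3, 85, 34.3 and 53.5 FPKM in wildtype skin and at 35.3, 75.3, 60.6 and 15.5 FPKM in hairloss skin. Cxcl14, a ligand made by epithelia, was equal at birth, and at day 28 it was 3.45-fold lower in hairloss skin. Cxcl13 stood at 1.68, 0.301, 0.201 and 0.328 FPKM in wildtype skin and at 2.34, 1.0, 1.65 and 0.774 FPKM in hairloss skin. Cxcl13, the ligand of Cxcr5, the chemokine receptor of B cells, was higher in hairloss skin in all 3 later libraries at levels under 2 FPKM, and passed 2-fold at day 19 (1.14). Markers of B cells were at or near 0, with a summed level of 0.282 to 1.19 FPKM in wildtype skin and 0.425 to 2.44 FPKM in hairloss skin and 1 of 1 compared higher at day 16.

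The interferon-inducible ligands and the fractalkine pair were low, and none of these genes passed 2-fold on the log2(FPKM + 1) scale at any age. Cxcl9 and Cxcl10 attract activated T cells through Cxcr3. Cxcl9 stood at 0.346, 0.251, 0.604 and 0.464 FPKM in wildtype skin and at 0.161, 1.3, 1.84 and 0.769 FPKM in hairloss skin. Its 3 later hairloss values lay above the 3 later wildtype values, with differences of 0.88, 0.82 and 0.27, and at days 16 and 19 the FPKM values themselves differed by more than 2-fold. Cxcr3 stood at 0.281, 0.388, 0.723 and 0.262 FPKM in wildtype skin and at 0.148, 1.07, 1.04 and 0.399 FPKM in hairloss skin. The receptor was likewise higher in hairloss skin at the 3 later ages, by 0.58, 0.25 and 0.15. Cxcl10 stayed between 1.33 and 3.9 FPKM with differences in both directions, and its exons overlap those of Art3 on the other strand. Cx3cl1 (fractalkine, a membrane-bound ligand) stayed between 1.91 and 3.49 FPKM. Cx3cr1 stood at 1.24, 0.748, 1.54 and 0.536 FPKM in wildtype skin and at 0.293, 1.55, 1.33 and 1.25 FPKM in hairloss skin. Cx3cr1, the receptor of Cx3cl1 on monocytes and macrophages, was lower in hairloss skin at birth (-0.79) and higher at days 16 and 28 (0.54 and 0.55), and the genotypes overlapped.

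Many ligand genes lie in clusters, and on chromosome 11 most neighbours compared were higher at day 16 in these libraries. Over all members compared 19 of 36 were higher at that age, and over all genes compared 5.34%. On chromosome 11, 82035571 to 82305690 (mm10), lie Ccl2, Ccl7, Ccl11, Ccl12, Ccl8 and Ccl1, of which 5 of 6 were higher at day 16, with Ccl11 at 0.58. Further along, at 83525778 to 83664683, lie Ccl5, Ccl9, Ccl6, Ccl3 and Ccl4, where 4 of 4 compared were higher. On chromosome 8, 94745590 to 94812036, only Ccl17 of Ccl22, Cx3cl1 and Ccl17 passed 2-fold. Ccl1, Ccl4, Ccl5, Ccl12 and Ccl17 reached 1 FPKM at day 16 in the hairloss library only, so they could not have counted as lower. At day 28 the count in the first chromosome 11 cluster was 2 of 6 (Ccl7 and Ccl11), beside 6 of 28 members compared and 5.6% of all genes compared.

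The genotype difference over the 4 ages was tested with limma on log2(FPKM + 1) values, with genotype and age in the model, so that the error is the spread of the difference between ages (3 residual degrees of freedom). Sex was not in the model. No member passed an adjusted p of 0.05: 0 of 40 were called, against 0.0374% of the 18724 genes tested (7 genes). At an unadjusted p under 0.05 there were 8 of 40 members (20%) against 13.4% of all genes. The estimates leaned upwards, with a median of 0.43 against -0.04 over all genes, and 33 of 40 were above 0 against 44.4% of all genes. The 33 include all 7 members that reached 1 FPKM in hairloss libraries only (Ccl4, Ccl5, Ccr8, Cxcl5, Cxcl9, Cxcr2 and Cxcr3). These were tested only through the genotype in which they are high, which raises that count. Ccl3 and Ccr10 reached 1 FPKM in wildtype libraries only. Of the 40, 8 were above wildtype in hairloss skin at all 4 ages (Ccl4, Ccl6, Ccl12, Ccl20, Ccr2, Cxcl12, Cxcl13 and Cxcr2; 11.5% of all genes) and 3 were below at all 4 (Ccl25, Ccl27a and Ccr4; 13.5% of all genes), whatever the size. At day 0 some of these differences were close to 0, such as 0.01 for Ccl12, 0.02 for Cxcr2 and 0.03 for Ccl4. Ccl4 and Cxcr2 reached 1 FPKM in hairloss libraries only.

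The members with the lowest p were Cxcr2, Ccr4, Cxcl13, Ccl27a and Ccl20. The limma estimate of Cxcr2 was 1.79 ± 0.50 (SE), with a Benjamini-Hochberg adjusted p of 0.329, higher at 4 of 4 ages. Ccr4 was at -1.65 ± 0.47 with a limma adjusted p of 0.331, lower at 4 of 4 ages. Ccl20 had the largest estimate, 2.48 ± 0.74, and a limma adjusted p of 0.343. Cxcl13 (0.62 ± 0.18) and Ccl27a (-0.98 ± 0.30) had smaller differences that varied less between ages. For Cxcl1 and Cxcl5, whose differences were large at days 16 and 19 and smaller at days 0 and 28, the estimates were 1.67 ± 0.68 and 1.67 ± 0.77, with limma adjusted p of 0.378 and 0.414. Without day 16, 1 member instead of 8 had an unadjusted limma p under 0.05, and the median estimate of the members was 0.18 (-0.01 over all genes). Without day 0 there were 16 such members. Over all 18724 genes, 1061 had an unadjusted limma p under 0.05 without day 16 and 2279 without day 0, against 2511 with every age.

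**Figure D4:**
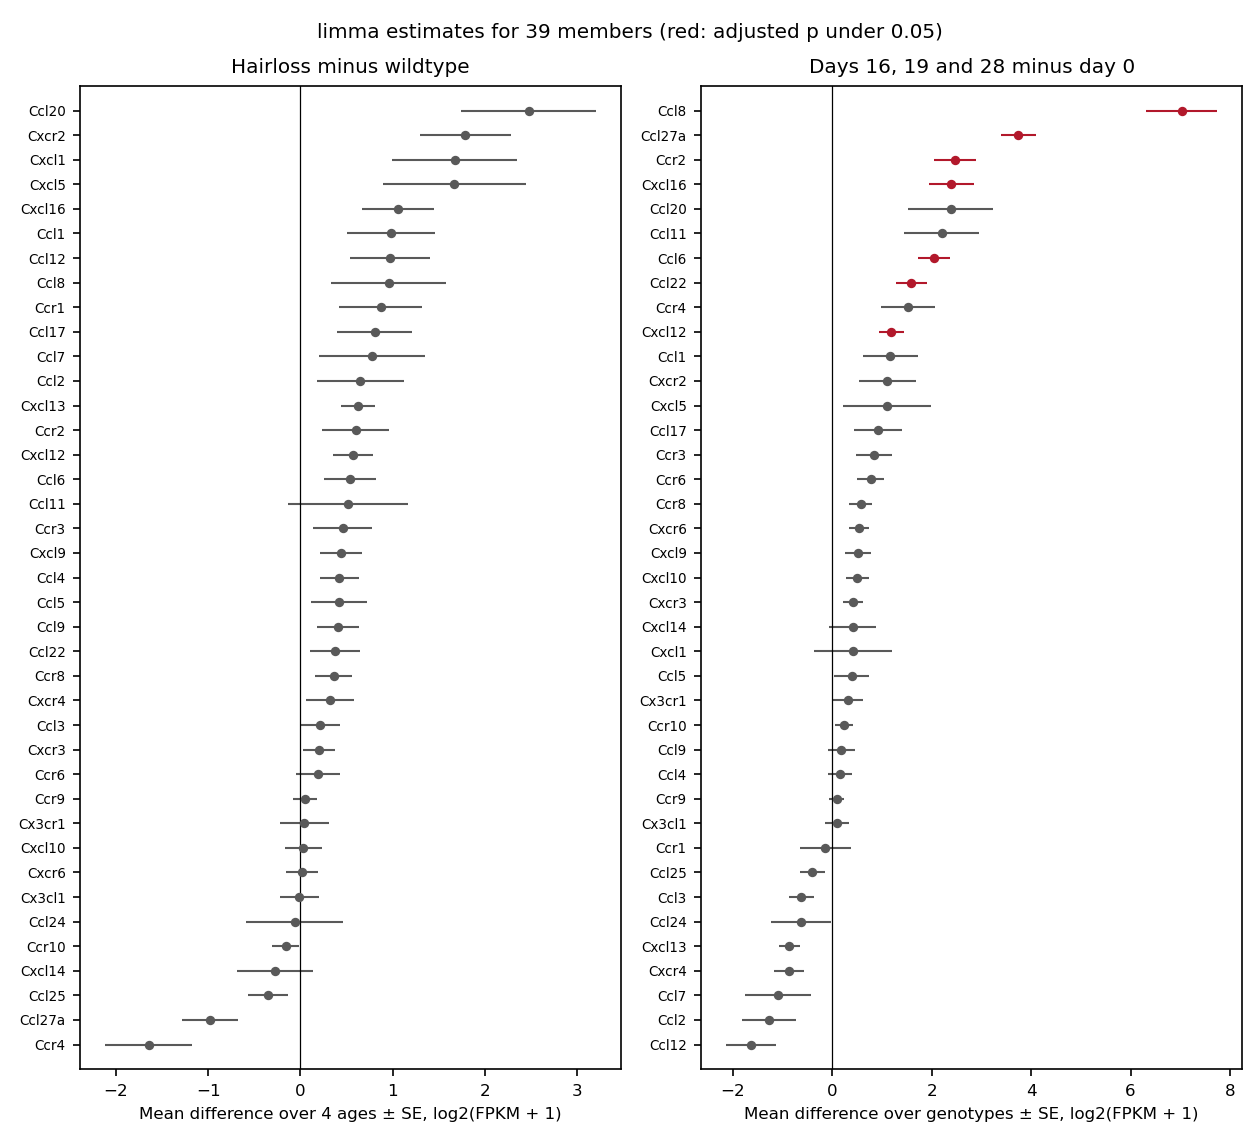
limma estimates with standard errors (horizontal axis, log2(FPKM + 1) scale) for 39 of the detected members (rows), for hairloss minus wildtype over 4 ages (left) and for days 16, 19 and 28 minus day 0 over both genotypes (right); red marks an adjusted p under 0.05. No member is red on the left, where Ccl20 has the largest estimate (2.48 ± 0.74), and 7 are red on the right, led by Ccl8 (7.03 ± 0.72).

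Levels changed with age for 7 members. In the same fit, the mean of days 16, 19 and 28 was compared with day 0 over both genotypes, and 7 of 40 members rose (5.11% of all genes did) while 0 fell (6.72% of all genes did). With libraries scaled to an equal sum over coding genes other than keratins, the genes called split into 788 higher and 2122 lower, against 957 and 1259, and the same 7 members were called higher with Cxcl13 called lower. An unadjusted p under 0.05 was reached by 16 of 40 members (40%) against 34.5% of all genes. Ccl8 rose by 7.03 ± 0.72 on the log2 scale (limma adjusted p = 0.0187) and Ccl27a by 3.74 ± 0.35 (limma adjusted p = 0.0134), and for both genes every later library lay above both day 0 libraries. Ccr2 rose by 2.47 ± 0.42 (limma adjusted p = 0.0316), Cxcl16 by 2.40 ± 0.45 (limma adjusted p = 0.037) and Ccl6 by 2.05 ± 0.32 (limma adjusted p = 0.0282). Ccl22 rose by 1.59 ± 0.31 and Cxcl12 by 1.19 ± 0.25, with limma adjusted p of 0.0385 and 0.0426. The 7 thus hold 6 ligands and 1 receptor.

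Members with estimates below 0 did not pass. The lowest were Ccl12 at -1.64 ± 0.50 (limma adjusted p = 0.0877), Ccl2 at -1.27 ± 0.55 (limma adjusted p = 0.171) and Ccl7 at -1.09 ± 0.66 (limma adjusted p = 0.30). Cxcl13, at -0.87 ± 0.21, had the lowest limma adjusted p among them (0.0551), and Cxcr4 was at -0.87 ± 0.30 (limma adjusted p = 0.112). Without the 2 day 16 libraries, 3 of the 7 stayed called (Ccl6, Ccl8 and Ccr2), and without those of day 19, 3 of them did (Ccl8, Ccl22 and Ccl27a) and Cxcl13 was called as lower. Without day 28, Cxcl16 was not called and Ccl11 was called as higher. Over all 18724 genes, the calls went from 2216 with every age to 27 without day 16, 1880 without day 19 and 1500 without day 28. The loss without day 16 was thus not particular to the members.

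The later steps gave no call among the members. From day 16 to day 19, limma called 0 of 40 members (0.016% of all genes) and 0 had an unadjusted p under 0.05, against 5.21% of all genes. From day 19 to day 28 it called 0 members (0.0% of all genes), with 5 at an unadjusted p under 0.05 (Ccl6, Ccl22, Ccl27a, Ccr3 and Cxcl12), or 12.5% against 10.2% of all genes. All 5 had lower levels at day 28, and 2 of the 40 estimates were above 0, against 45.9% of all genes.

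Related ligands and receptors outside the naming rule were mixed. Of 13 such genes, 3 of 10 compared were higher at day 16, and 2 of 11 were higher and 1 lower at day 19. At day 16 the 3 with the largest differences were the platelet chemokine Pf4 (33.9 FPKM in wildtype against 90.0 FPKM in hairloss skin), the orphan receptor Gpr35 (0.648 and 3.09 FPKM) and the cytokine Mif (165 and 373 FPKM), a non-classical ligand of Cxcr2 and Cxcr4. Ackr4, which scavenges Ccl25 and the Ccr7 ligands, was the 1 lower at day 19 (25.2 and 8.0 FPKM). At day 0, 0 of 9 were higher and 1 lower, and at day 28 none of 10 passed in either direction.

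Genes that carry chemokine signals inside the cell were mostly within 2-fold. Of 18 G protein, arrestin and exchange factor genes, 3 were higher at day 16, 1 at day 19, 2 at day 28 and 0 at day 0, and none was lower, with medians of 0.61, 0.19 and 0.49 at the later ages. Vav1 and Dock2, exchange factors of leukocytes, and Rgs16, which shortens G protein signals, were the 3 at day 16, with Vav1 at 1.12 FPKM in wildtype against 7.36 FPKM in hairloss skin. limma called 0 of these genes between genotypes, with 5 at an unadjusted p under 0.05.

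Signals known to induce chemokines were also compared. Of the 14 detected genes among 21 listed, 6 of 14 compared were higher at day 16, 1 of 13 at day 19, 2 of 13 at day 28 and 0 of 12 at day 0, with none lower. Il1b, an inducer of Cxcl1 and Ccl20, stood at 1.03 FPKM in wildtype against 11.8 FPKM in hairloss skin at day 16, and its day 19 levels were 1.71 and 7.26 FPKM. Nfkb2 (7.62 and 19.8 FPKM) and Relb (2.57 and 7.35 FPKM), both subunits of NF-kappa-B, followed at day 16. Nfkbiz, an NF-kappa-B cofactor induced by interleukin-17, had the largest difference at day 28 (3.34 and 13.6 FPKM). Il22 was listed at 0 in all 8 libraries. Their part in the chemokine levels was not tested.

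Enzymes that cut chemokines went in both directions. Of 7 detected proteases, 6 of 7 compared were higher and 1 lower at day 16, 2 of 6 higher and 1 lower at day 19, and 3 of 4 higher at day 28. Mmp9, which trims CXC ligands, stood at 1.62 FPKM in wildtype against 15.6 FPKM in hairloss skin at day 16, and Mmp13 and Mmp12 also led the list. Mmp13 (0.135 and 4.47 FPKM) and Mmp12 (0.368 and 4.58 FPKM) reached 1 FPKM at day 16 in the hairloss library only. Dpp4, which inactivates Cxcl12 and other ligands by removing a dipeptide, was the 1 that was lower, with 15.3 FPKM in wildtype against 5.51 FPKM in hairloss skin at day 16 and 11.8 against 4.86 FPKM at day 19. limma called 0 of the 7 between genotypes, with 3 at an unadjusted p under 0.05.

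**Figure D5:**
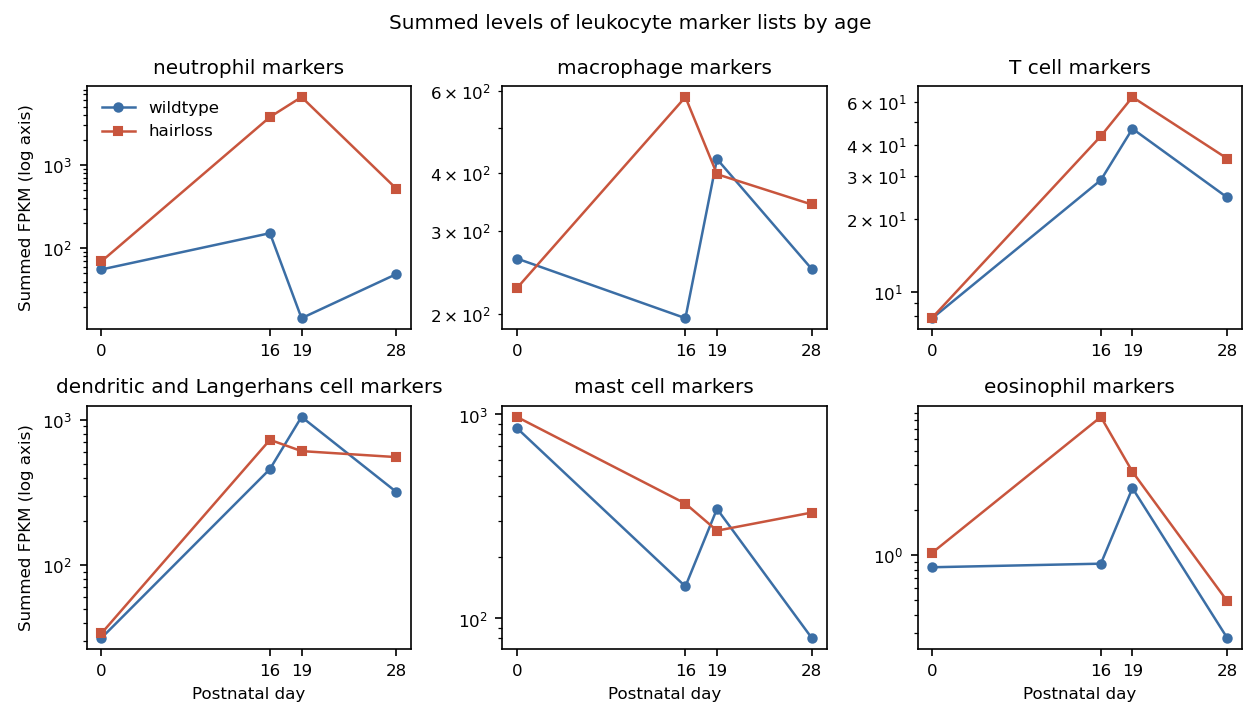
Summed FPKM (vertical axis, log scale, a range for each panel) of 6 marker lists of leukocytes by postnatal day (horizontal axis), wildtype as blue circles and hairloss as red squares, 1 library per point. The neutrophil list, which S100a8 and S100a9 dominate, reaches 6519 FPKM in hairloss skin at day 19, and the macrophage list is highest in hairloss skin at day 16 (581 FPKM).

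Other cell type markers also differed between these libraries. Mast cell markers, whose cells make and answer chemokines, were higher for 4 of 6 compared at day 16, 1 of 7 at day 19 and 6 of 7 at day 28, with a summed level of 80.2 to 858 FPKM in wildtype skin and 269 to 973 FPKM in hairloss skin. Keratinocyte markers were higher for 3 of 7 at day 16 and 4 of 7 at days 19 and 28, with a summed level of 1946 to 5269 FPKM in wildtype skin and 8127 to 11643 FPKM in hairloss skin. Fibroblast markers were lower for 3 of 5 at day 19, and 1 of 5 was higher and 1 lower at day 28 (1780.1 to 5061 FPKM in wildtype skin and 1354 to 2746 FPKM in hairloss skin). Endothelial markers had 1 of 4 lower at day 19 (24.3 to 74.1 FPKM in wildtype skin and 41.5 to 91.2 FPKM in hairloss skin), lymphatic endothelial markers 1 of 3 higher at day 28 (6.89 to 32 FPKM in wildtype skin and 9.82 to 32.8 FPKM in hairloss skin), and platelet (4.29 to 7.02 FPKM in wildtype skin and 4.08 to 5.53 FPKM in hairloss skin) and NK cell markers (0.398 to 4.61 FPKM in wildtype skin and 0.292 to 4.55 FPKM in hairloss skin) had none past 2-fold. limma called no gene of any of these lists or of the leukocyte lists above between genotypes, and their part in the chemokine levels was not tested.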

How the data were processed

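Total RNA was extracted with RNeasy columns and sequenced after TruSeq library preparation, per the labels' protocols. The authors deposited 1 value per Ensembl gene and library with no unit in the header. The values were taken to be FPKM, inferred from the values and from Cuffdiff, which the submitters' processing notes name together with cutadapt and mm10. Tool versions, the aligner, the annotation release, the use of strand in counting and any scaling between libraries are steps not given in the sources used here.

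Groups came from the sample labels. Gene coordinates and overlaps came from GENCODE M21 (mm10). Depth was estimated from the values of single-transcript genes, since the files hold no counts, and limits drawn from it cover counting error only. Values were analysed as log2(FPKM + 1). Within an age, the 2 libraries were set against each other by size alone (at least 2-fold and at least 1 FPKM in either). limma 3.58.1 (R 4.3.3) was fitted to 18724 genes with at least 1 FPKM in a library, with genotype and age, trend and robust settings, two-sided tests and Benjamini-Hochberg adjustment. The labels give no replicate numbers and do not say that libraries are separate animals, so p-values measure the spread between these libraries. The code was tested on simulated data. Tables were handled with pandas 2.3.3.

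The members, the pathway and marker lists and the tests were chosen with earlier results of these data known. Every detected member may be named; of another list, at most the 3 genes with the largest difference at the age described, and genes of a defining role that are at or near 0. Alternatives were other pseudocounts, other limits on low values, 2 other scalings, plain limma settings, no age term, suspected failed estimates left out (67 genes, 0 of them members) and each age left out in turn. Promoter sequences are from RefSeq. Of the detected members, 1 enters the counts and fits and is not reported here singly.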

Additional observations from a re-analysis of the deposited data

Results flagged for a closer look

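Ccl11 differed in opposite directions at neighbouring ages: hairloss minus wildtype was -1.21 at day 19 and 2.64 at day 28 on the log2(FPKM + 1) scale. The wildtype level went from 43.8 FPKM at day 19 to 2.41 FPKM at day 28, and the hairloss level from 18.4 to 20.2 FPKM. Each value is 1 library, and the difference between the ages was not tested.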

How the results depend on the processing

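No member was called between genotypes by limma under any of the 13 alternatives, and the adjusted p ran over 0.177 to 0.811 for Cxcr2, 0.259 to 0.811 for Ccr4 and 0.274 to 0.811 for Ccl20. Of the counts, 72 values stayed within 1.5 times of the reported one and 10 did not. With a pseudocount of 5, 0 members were 2-fold lower at day 16 (2 reported), 3 higher at day 19 (10 reported), 3 higher at day 28 (6 reported) and 1 lower at day 28 (2 reported). With a pseudocount of 0.1, 1 member was lower at day 0 (0 reported) and 12 were higher at day 28. The counts over all genes shifted too. With a pseudocount of 5 they were, in the same order, 527 instead of 1196, 533 instead of 1088, 401 instead of 897 and 567 instead of 1029. With 0.1 they were 500 instead of 263 at day 0 and 1424 instead of 897 at day 28. These shifts follow from the pseudocount, which sets how far low values count. A limit of 5 FPKM left 22 members detected instead of 40 (12393 of all genes instead of 18724). For the later ages against day 0, fitting all genes above 0 left 4 of 7 members called (1596 calls over all genes, against 2216). Leaving out 1 age gave 3 (without day 16) to 7 member calls, with 4 without day 19. Over all genes there were 27 calls without day 16, 1880 without day 19 and 1500 without day 28. The cause was not tested. For single members the call was lost in 14 values and none reversed, among them Ccl22 and Ccr2 with a pseudocount of 5 and Ccl22, Cxcl12 and Cxcl16 with all genes above 0. Scaling to an equal coding sum moved the median of all genes to -0.17 (from -0.05) for later ages against day 0. The age term pairs the 2 libraries of an age, and the labels carry no replicate numbers. Without the term limma likewise called 0 members between genotypes (8 of all genes). It left 4 members instead of 8 at an unadjusted p under 0.05, and 1441 of all genes instead of 2511. With 1 library per genotype and age, differences of low genes at a single age were not checked against any spread.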
